A study of Homo sapiens with 4 samples.

Results

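The RUNX, CBFB and ETO genes encode the core-binding factor and the corepressors first found fused to it in leukemia. The group was chosen by name and holds 7 genes, of which 5 could be analysed among the 28412 genes of the deposited table. These 5 are RUNX1, RUNX2, CBFB, CBFA2T2 and CBFA2T3. RUNX3 and RUNX1T1 were not analysed here. RNA-seq had been performed on the human leukemia cell line labelled NB4, a promyelocytic line, in 4 libraries. In 2 libraries the cells carried the lentiviral control vector sh-NC, which the labels list as control cells with no treatment. In the other 2 libraries they carried sh-LDB1, a lentiviral shRNA vector that lowers LDB1. LDB1 is an adaptor protein that forms a complex with LMO2, GATA1 and TAL1. Infected cells were selected with puromycin. The sources used here do not say which of the designed shRNAs was sequenced, or whether the cells were a pool or a clone. Nothing states that the replicates were separate cultures, so the p-values measure only the spread between libraries, which may be technical.

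A RUNX protein binds DNA through its runt domain and does so tightly only when paired with CBFB, the non-DNA-binding partner that all RUNX proteins share. RUNX1 is required for the first blood stem cells and for megakaryocyte and lymphoid development, RUNX2 is the master regulator of bone-forming cells, and both are altered in leukemia. The ETO proteins do not bind DNA themselves but bring NCOR and histone deacetylases to factors that do. CBFA2T3, also called ETO2 or MTG16, is a known member of the LDB1, TAL1 and GATA1 complex of red cell precursors, and CBFA2T2, also called MTGR1, is its close relative.

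Results showed that the 5 genes moved in both directions when LDB1 was lowered. The corepressor CBFA2T3 fell to 33.5% of its sh-NC level and RUNX1 to 54.5%. CBFB and CBFA2T2 rose 2.09-fold and 2.15-fold in the same libraries. RUNX2 was barely detected in sh-NC, at a mean of 0.15 FPKM, and reached 1.04 FPKM in sh-LDB1. FPKM counts fragments scaled by the length of the gene and by a size taken for the library. Levels of different genes set side by side therefore depend on the gene lengths used.

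**Figure D1:**
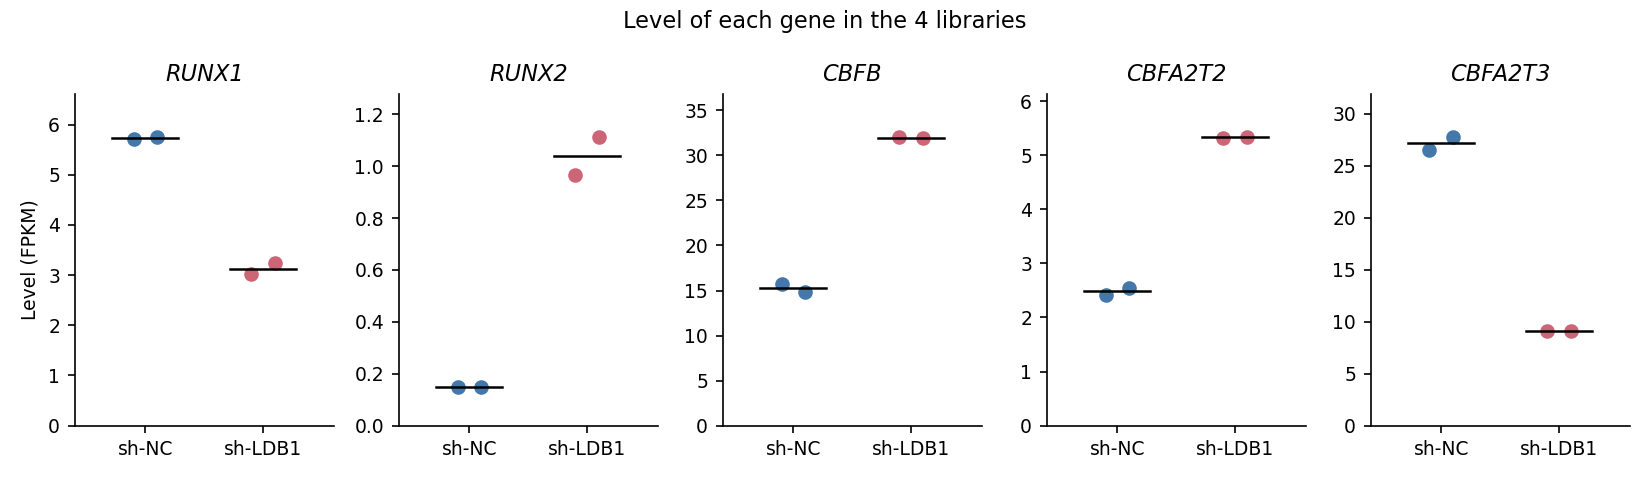
Each panel plots one gene, with the level in FPKM on a linear axis from 0 and 1 point per library (2 sh-NC, 2 sh-LDB1). Black lines are group means. RUNX1 and CBFA2T3 lie lower in both sh-LDB1 libraries, while RUNX2, CBFB and CBFA2T2 lie higher. The groups overlap for none of the 5 genes, and they did not overlap for 84.6% of all genes tested.

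The libraries were checked first. The deposited values corresponded to 14802343 to 17203426 recovered reads per library. The library sizes implied by the FPKM values were 16182674 and 14746656 under sh-NC, below the recovered 17203426 and 15770677 reads. Under sh-LDB1 they were 16021191 and 15131588, above the recovered 15759383 and 14802343 reads. LDB1, the targeted gene, was at 135.1 and 120.1 FPKM under sh-NC against 10.2 and 9.47 FPKM under sh-LDB1, which left 7.73% of the control level. The cells did not carry the marker pattern of their label. Of the 8 promyelocyte and granulocyte markers with values, ELANE (neutrophil elastase) was listed at 0 in 3 libraries and reached 0.182 FPKM in the remaining one. LYZ was at 5.85 and 5.61 FPKM under sh-NC against 19.3 and 19.1 FPKM under sh-LDB1, and CSF3R and PRTN3 were higher as well. CEBPE and MS4A3 were lower in both sh-LDB1 libraries. The list summed to 11.7 to 13.1 FPKM in sh-NC and 37.9 to 41.4 FPKM in sh-LDB1. The 14 erythroid markers summed to 3962 to 4151 FPKM in sh-NC and to 293.1 to 327 FPKM in sh-LDB1. By limma, all 13 erythroid markers tested fell and 4 of 6 granulocyte markers tested rose (adjusted p-values below 0.05). Over all genes tested, 37.4% were lower and 29.9% higher. The 4 megakaryocyte markers with values summed to at most 3.91 FPKM in any library. Lymphoid markers summed to 21.3 to 24.1 FPKM in sh-NC and to 44.9 to 47.7 FPKM in sh-LDB1, nearly all of it CD3D. Of the megakaryocyte markers the 2 tested did not pass (GP1BA and ITGA2B, limma adjusted p = 0.365 and 0.351), and of the 2 lymphoid markers tested CD3D passed. The erythroid and granulocyte lists and CD3D differed between the same libraries as the genes described here, and their part in those differences was not tested. In bulk RNA, fewer cells of a type and less RNA per cell cannot be told apart. The mitochondrial share of the summed FPKM was 16.3% and 17.3% under sh-NC against 11.8% and 11.3% under sh-LDB1.

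The DNA-binding subunits were examined next. RUNX1 (ENSG00000159216) occupies the minus strand of chromosome 21 between 34787801 and 36004667 (build GRCh38). Control cells gave 5.72 and 5.76 FPKM of RUNX1, and knockdown cells 3.01 and 3.24 FPKM. Both knockdown libraries were below both controls, as for 46.3% of the genes tested, and the values within each group differed little. The mean fell to 3.13 ± 0.158 FPKM, from 5.74 ± 0.0273 FPKM in the controls (SD, n = 2 each). On the log2(FPKM + 1) scale, which understates the change of low genes, the difference was -0.71 with a standard error of 0.0673 (adjusted p = 0.00105 by limma with Benjamini-Hochberg correction). This passed the adjusted p-value of 0.05 but not the additional threshold of a 2-fold change. Between 752 and 1441 recovered reads per library lay behind these values. RUNX1 stood near the middle of the genes tested in sh-NC, above 47.8% to 48.0% of them, and above 31.0% to 32.8% of them in sh-LDB1.

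RUNX2 (ENSG00000124813; chromosome 6, 45328157 to 45664349, plus strand) was at 0.151 and 0.149 FPKM under sh-NC against 0.968 and 1.11 FPKM under sh-LDB1. These levels correspond to 20 and 18 recovered reads in the control libraries and to 127 and 138 in the knockdown libraries. The means of 0.15 ± 0.00132 FPKM and 1.04 ± 0.103 FPKM (SD, n = 2 each) differed 6.94-fold. RUNX2 had a mean under 1 FPKM over the 4 libraries, so it was left out of the main test. In a fit without that filter its difference was 0.83 on the log2(FPKM + 1) scale (standard error 0.0981, adjusted p = 0.00927 by limma). In that fit 17.3% of 28412 genes were higher at an adjusted p-value below 0.05, and 34.4% passed in either direction. RUNX2 did not reach the 2-fold threshold on this scale, which 4.8% of genes passed as higher and 9.67% in either direction. The size of the RUNX2 difference depended on the constant added to the values, and with 0.1 FPKM in place of 1 FPKM it was 2.19. The adjusted p-value rose to 0.0744 and 0.0756 when sh-NC replicate 1 or 2 was left out.

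RUNX2 has a pair of start sites in the RefSeq table (GRCh38.p14), and the first is the only start listed for RUNX1, RUNX2, CBFA2T2 and CBFA2T3 with a RUNX motif in the 250 bases before it. The starts listed for RUNX1, CBFA2T2 and CBFA2T3 lie inside their annotated genes, and other starts of these genes were not searched. The sequences are shown because RUNX2, which had the highest ratio of FPKM between the groups but not the highest difference on the log2(FPKM + 1) scale, carries the motif that RUNX proteins bind before its distal start. The second stretch lies within the annotated gene, whose first base precedes that start. They are written 5′ to 3′ on the gene's strand, and capitals mark ACCACA, which is the RUNX motif TGTGGT read from the opposite strand.
RUNX2 chr6:45328080-45328156: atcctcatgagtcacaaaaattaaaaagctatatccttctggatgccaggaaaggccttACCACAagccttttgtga
RUNX2 chr6:45328231-45328260: gtgaggtcacaaACCACAtgattctgcctc
The matches begin 191 and 87 bases before that start. Of 35116 RefSeq promoters of the same length, 250 bases before the start, 10.98% held TGTGGT on either strand and 0.971% held it at 2 or more sites. These shares do not allow for the choice of this start because it held matches. Its 250 bases are 41.6% G or C, against a median of 58.0% over all promoters. A match describes the letters only, and binding at these sites was not measured here.

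The levels of RUNX1 and RUNX2 were then set against each other within each library. RUNX1 made up 97.4% and 97.5% of their summed FPKM in the control libraries, falling to 75.7% and 74.4% after knockdown. RUNX2 supplied the remaining 2.57% and 2.52% under sh-NC against 24.3% and 25.6% under sh-LDB1. By FPKM, RUNX1 still exceeded RUNX2 in every library, by 38.3 ± 0.519 times in sh-NC and 3.01 ± 0.146 times in sh-LDB1 (SD, n = 2 each). Their sum was 5.87 and 5.91 FPKM under sh-NC against 3.98 and 4.35 FPKM under sh-LDB1. No stretch of 50 bases was shared between the annotated transcripts of any of the 10 pairs that the 5 genes form.

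The beta subunit moved against RUNX1. CBFB (ENSG00000067955; chromosome 16, 67028984 to 67101058, plus strand) protects RUNX proteins from degradation and strengthens their hold on DNA. It was at 15.7 and 14.9 FPKM under sh-NC against 32.1 and 31.9 FPKM under sh-LDB1. The knockdown libraries lay above the controls with no overlap, as for 38.3% of the genes tested. The mean rose to 32.0 ± 0.127 FPKM from a control mean of 15.3 ± 0.611 FPKM (SD, n = 2 each), a log2(FPKM + 1) difference of 1.02 (standard error 0.0484, adjusted p = 0.000179 by limma). The difference exceeded that of 90.5% of the genes tested. It stood at the edge of the 2-fold threshold, and fell to 0.98, below it, when sh-NC replicate 2 was left out.

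By FPKM, CBFB stood above the summed DNA-binding subunits in all 4 libraries. FPKM divided reads by 4129 bases for CBFB and by 15574 for RUNX1, which counts every exon of its annotated transcripts. In sh-NC, RUNX1 had 1441 and 1322 recovered reads against 1052 and 906 for CBFB. Which of them stood higher in sh-NC thus depends on these lengths. The ratio of CBFB to the summed RUNX1 and RUNX2 FPKM was 2.68 and 2.52 under sh-NC against 8.05 and 7.33 under sh-LDB1. The mean ratio was thus 2.96 times higher in sh-LDB1 than in sh-NC. These are ratios of FPKM, and protein was not measured in these files. With 2 libraries a group no exact test of such a share or ratio can reach 0.05, so none was made.

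**Figure D2:**
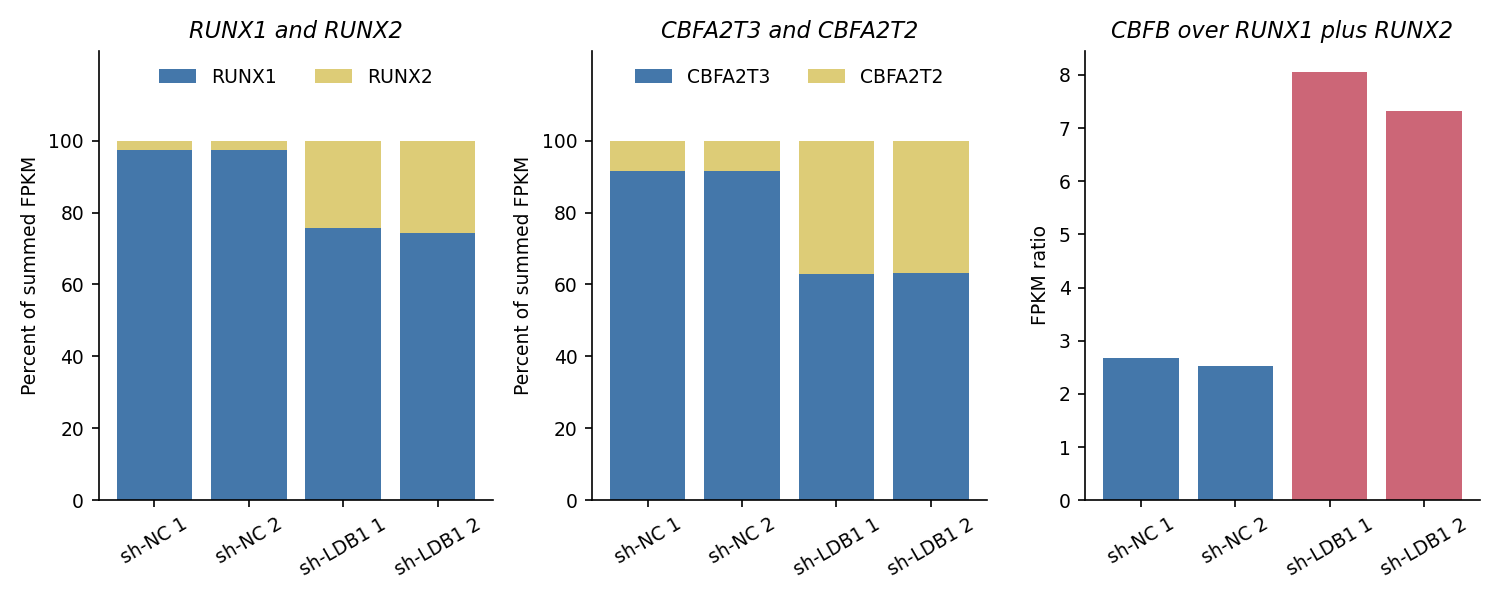
Stacked bars show the percent of summed FPKM taken by RUNX1 and RUNX2 (left) and by CBFA2T3 and CBFA2T2 (middle) in each library, and bars on the right show the FPKM of CBFB divided by that of RUNX1 plus RUNX2. The lesser gene of each pair takes a larger share in both sh-LDB1 libraries, and the CBFB ratio is 8.05 and 7.33 there against 2.68 and 2.52 in sh-NC.

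The ETO genes moved in opposite directions. CBFA2T3 (ENSG00000129993; chromosome 16, 88874858 to 88977207, minus strand) was the most abundant of the 5 genes in sh-NC. It was at 26.5 and 27.8 FPKM under sh-NC against 9.07 and 9.12 FPKM under sh-LDB1. The mean fell from 27.2 ± 0.895 FPKM to 9.10 ± 0.0328 FPKM (SD, n = 2 each), and the groups were far apart compared with the spread within them. The log2(FPKM + 1) difference was -1.48 (standard error 0.0485, adjusted p = 0.000104 by limma). It fell further than 96.3% of the genes tested. It was the only member that passed when limma treat tested whether the change itself exceeded 2-fold (adjusted p = 0.00447).

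The 250 bases before the RefSeq start of CBFA2T3 (GRCh38.p14, minus strand) are shown because CBFA2T3 fell furthest of the members. This start lies inside the annotated gene. Capitals mark CAGGTG, a match to CAGNTG, a form of the E-box CANNTG that factors such as TAL1 bind together with E proteins.
CBFA2T3 chr16:88941351-88941600: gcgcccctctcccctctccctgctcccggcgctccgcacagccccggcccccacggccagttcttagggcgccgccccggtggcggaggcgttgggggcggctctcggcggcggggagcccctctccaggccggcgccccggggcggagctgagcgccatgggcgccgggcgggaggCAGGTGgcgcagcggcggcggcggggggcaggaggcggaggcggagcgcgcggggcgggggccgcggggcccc
The match begins 73 bases before the start, and 42.5% of all RefSeq promoters of that length held CAGNTG on either strand. The stretch is 84.4% G or C, against a median of 58.0% over all promoters, and held neither TGTGGT nor GATAA, the motif of GATA factors, which 20.4% of promoters held.

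Transcripts annotated across CBFA2T3 were followed because the use of strand in counting is not stated. AC092384.2, an antisense lncRNA, shares 501 of its 3057 exon bases with CBFA2T3, so reads there cannot be told apart. It was at 2.43 and 2.51 FPKM under sh-NC against 1.25 and 1.28 FPKM under sh-LDB1. AC092384.1, antisense with no shared exon base, was at 2.52 and 2.99 FPKM under sh-NC against 1.10 and 0.802 FPKM under sh-LDB1. AC092384.3, on the same strand as CBFA2T3, was at 1.12 and 1.53 FPKM under sh-NC against 0.435 and 0.552 FPKM under sh-LDB1. All 3 were lower in both knockdown libraries, in the direction of CBFA2T3, and so were 46.3% of the genes tested. Inside RUNX2, the antisense lncRNA AL096865.1 had 2 recovered reads in each sh-NC library and 14 and 17 in the sh-LDB1 libraries. The neighbour SUPT3H, which spans the RUNX2 start on the opposite strand, was instead at 4.70 and 5.24 FPKM under sh-NC against 3.50 and 4.06 FPKM under sh-LDB1 (limma adjusted p = 0.0358).

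CBFA2T2 (ENSG00000078699; chromosome 20, 33490075 to 33650036, plus strand) was at 2.42 and 2.55 FPKM under sh-NC against 5.33 and 5.34 FPKM under sh-LDB1. Both knockdown libraries were above both controls, as for 38.3% of the genes tested. The mean rose to 5.33 ± 0.00894 FPKM from a control mean of 2.49 ± 0.0955 FPKM (SD, n = 2 each), on 356 to 807 recovered reads per library. The log2(FPKM + 1) difference was 0.86 (standard error 0.0686, adjusted p = 0.000624 by limma). It passed the adjusted p-value but not the 2-fold threshold on this scale, since the added constant weighs on a gene of this level. With 0.1 FPKM added in its place the difference was 1.07, past the threshold.
The start that RefSeq lists lies inside the annotated gene, and the bases before it hold 1 CAGNTG site, in capitals, which begins 42 bases before that start. They are shown beside the promoter of CBFA2T3 because both ETO genes carry this motif and moved in opposite directions. The motif is not particular to the ETO genes. The second RefSeq start of RUNX2 has 2 CAGNTG sites in the 250 bases before it, and 42.5% of all RefSeq promoters held the motif.
CBFA2T2 chr20:33562233-33562332: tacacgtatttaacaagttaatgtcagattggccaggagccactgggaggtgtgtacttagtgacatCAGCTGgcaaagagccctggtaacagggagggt

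The balance within the ETO pair shifted accordingly. CBFA2T3 made up 91.6% of the summed FPKM of both genes in each sh-NC library, against 63.0% and 63.1% after knockdown. CBFA2T3 stood at 10.97 and 10.9 times the level of CBFA2T2 in the controls, against 1.70 and 1.71 times after knockdown. Together the pair came to 28.9 and 30.3 FPKM under sh-NC against 14.4 and 14.5 FPKM under sh-LDB1.

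The order of the 5 genes by FPKM, which depends on the gene lengths used, changed between the groups. In sh-NC it ran from CBFA2T3 at 27.2 FPKM through CBFB at 15.3, RUNX1 at 5.74 and CBFA2T2 at 2.49 to RUNX2 at 0.15 FPKM. In sh-LDB1 it ran from CBFB at 32.0 FPKM through CBFA2T3 at 9.10, CBFA2T2 at 5.33 and RUNX1 at 3.13 to RUNX2 at 1.04 FPKM. Neighbours in either order did not overlap between libraries.

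All 4 members tested passed a limma adjusted p-value of 0.05, and 67.4% of the 13300 genes tested did so. Of these members 2 were higher and 2 lower, where 29.9% of all genes were higher and 37.4% lower. With the 2-fold threshold, 1 member was higher (CBFB) and 1 lower (CBFA2T3). Among all genes 9.5% were higher and 10.3% lower past that threshold, together 19.8%. The groups did not overlap for any of the 5 genes, of which 3 were higher and 2 lower. Among the genes tested, the groups did not overlap for 84.6%, with 38.3% higher and 46.3% lower. A change in either direction was thus common among all genes. The median difference of all genes tested was -0.08, and scaling by total recovered reads raised it by 0.0979. Scaling the libraries to the same summed FPKM raised it by 0.139. That scaling moved the share of lower genes among all calls from 52.0% to 38.5%, while the 5 members kept their directions under it.

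**Figure D3:**
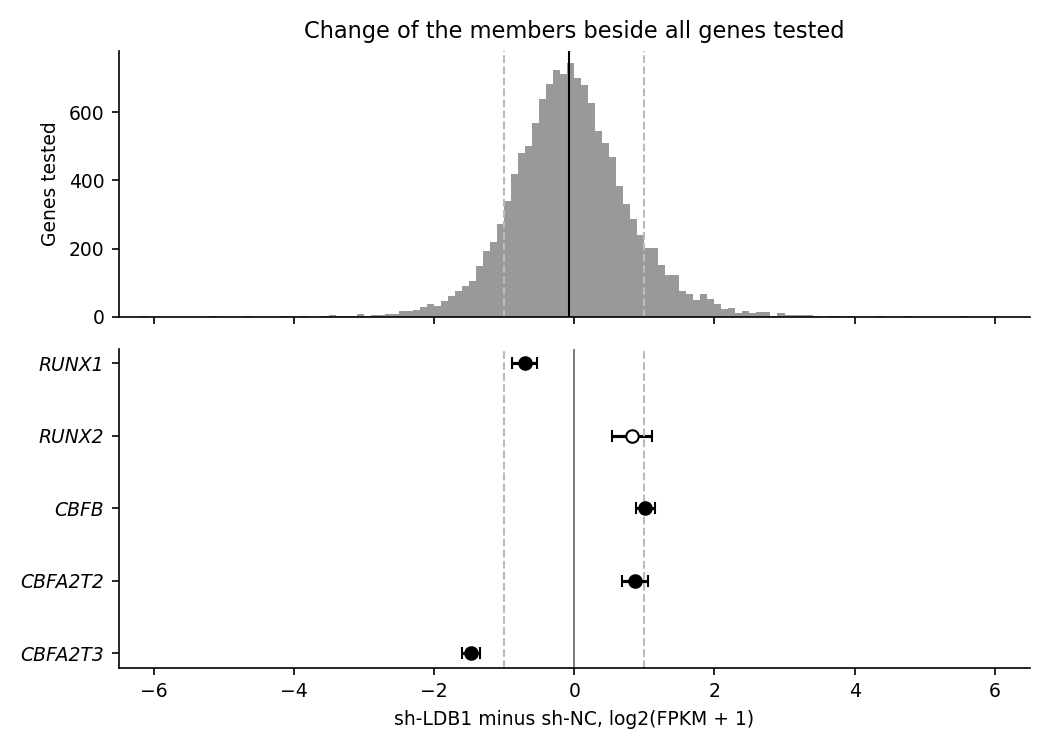
The upper panel is a histogram of the difference sh-LDB1 minus sh-NC on the log2(FPKM + 1) scale over the 13300 genes tested, with its median as a black line. The lower panel gives the 5 members on the same axis with 95% confidence intervals from limma, where the open point for RUNX2 comes from the fit without a filter on low values and dashed lines mark a 2-fold change. CBFA2T3 lies beyond the lower line, CBFB at the upper one.

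For the members that fell and rose most past the threshold, the genes with the nearest profile over the 4 libraries were found among 4838 genes of at least 10 FPKM, by Euclidean distance of log2(FPKM + 1) centred on each gene's mean. STARD7, CA8 and IQCB1 lay nearest to CBFA2T3, at distances of 0.0273 to 0.0317. TPCN1, CORO1B and EZR lay nearest to CBFB, at distances of 0.0226 to 0.0316. Within a distance of 0.1 there were 39 genes for CBFA2T3 and 75 for CBFB, so 4 libraries separate such profiles poorly.

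Transcription factors known as partners of RUNX1, and LMO2, which bridges such factors without binding DNA, were measured in the same fit. Of the 14 listed genes 10 were tested, and limma placed 3 higher and 7 lower (adjusted p-values below 0.05), with 3 and 5 past the 2-fold threshold. Among all genes tested 29.9% were higher and 37.4% lower, with 9.5% and 10.3% past that threshold. The median difference of the partners was -0.88, and -0.34 in the fit with no filter on low values, which adds CEBPA and ERG. JUN, a subunit of AP-1 that RUNX1 works with at stimulated genes, rose from 16.5 and 15.2 FPKM to 101.4 and 102.2 FPKM (2.61 on the log2 scale). SPI1, which encodes the myeloid factor PU.1, rose by 1.62 and FOS by 1.16. GATA1 fell from 226.7 and 222.2 FPKM to 63.3 and 61.1 FPKM (-1.83), and LMO2 fell by 2.19 on the log2 scale. MYB (-2.61), TAL1 (-2.10) and LYL1 (-1.37) fell as well, while CEBPA reached at most 0.427 FPKM in any library and was not tested.

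CBFA2T3 is bound into the LDB1 complex, and the 13 genes listed for that complex were all tested. At a limma adjusted p-value below 0.05, 11 were lower, 6 of them past the 2-fold threshold, and LMO4 (-0.24) and SSBP2 (-0.04) did not pass. Of all genes tested 37.4% were lower, and 10.3% were lower past that threshold. The list holds LDB1 itself, the target of the vector, and 5 of its genes also stand among the RUNX1 partners above. KLF1, the erythroid Krüppel-like factor, fell from 237.7 and 237.4 FPKM to 28.2 and 29.0 FPKM (-3.01). TCF3 (-0.87) and TCF12 (-0.55), the E proteins that pair with TAL1 and that ETO proteins bind, fell by less. The list's median was -0.87, against -1.48 for CBFA2T3.

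Corepressors and other partners of ETO and RUNX proteins, among them DNA-binding factors such as BCL6 and GFI1B, moved in both directions. Of 18 genes tested, 5 were higher and 9 lower (limma adjusted p-values below 0.05), with a median of -0.22, and the split was 7 higher and 8 lower when the libraries were scaled to the same summed FPKM. Past the 2-fold threshold there was 1 gene each way, and under that scaling 4 were higher and 1 lower, with a median of -0.06. Of all genes tested 29.9% were higher and 37.4% lower in the main fit, with 9.5% and 10.3% past the 2-fold threshold. Past that threshold all genes came to 1264 higher and 1371 lower, and to 1602 and 1001 under the same scaling. BCL6, a zinc finger repressor of B cells and macrophages, rose from 2.85 and 2.93 FPKM to 32.3 and 32.2 FPKM (3.10). GFI1B, the repressor of erythroid and megakaryocyte cells, fell from 31.7 and 34.5 FPKM to 4.71 and 4.92 FPKM (-2.55). NCOR1, the direct partner of the ETO zinc finger, was at 8.27 and 8.80 FPKM under sh-NC against 8.44 and 8.38 FPKM under sh-LDB1 (-0.02, adjusted p = 0.791). The deacetylase HDAC3 fell by 0.86 on the log2 scale, HDAC1 by 0.58 and HDAC2 by 0.38. Of the others, SIN3B (0.93) and IRF2BP2 (0.98), a partner of CBFA2T3 in red cell precursors, rose to just under the 2-fold threshold.

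Of 9 coactivators and enzymes that modify RUNX proteins tested, 4 were higher and 2 lower (limma adjusted p-values below 0.05), and 67.4% of all genes tested passed in either direction. Their median of 0.13 was 0.28 when the libraries were scaled to the same summed FPKM, and 0.08 without sh-LDB1 replicate 1. The acetyltransferases EP300 (0.58) and CREBBP (0.49) rose, as did the kinases HIPK1 (0.21) and HIPK2 (1.02), and HIPK2 alone passed the 2-fold threshold. The arginine methyltransferases CARM1 (-0.83) and PRMT6 (-0.70) fell. KAT6A (-0.11), KMT2A (0.13) and PRMT1 (-0.08) did not pass.

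Of 8 ubiquitin ligase genes that act on RUNX proteins, 3 were higher and 2 lower (limma adjusted p-values below 0.05), where 29.9% of all genes tested were higher and 37.4% lower. CDC20 (-0.90), the mitotic activator of the ligase APC that degrades RUNX1, and STUB1 (-0.59) fell. SMURF1 (0.66) and WWP1 (0.40), which act on RUNX2, and FZR1 (0.52) rose.

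Genes that RUNX1 is known to regulate in blood cells were divided. Of 20 with values, 10 stayed below 1 FPKM in every library and 10 were tested. Of those tested, 4 were higher and 3 lower (limma adjusted p-values below 0.05), with a median of 0.01. Passing was about as common among all genes tested, at 67.4% in either direction. NFE2, a factor of platelet and red cell genes, fell from 162.9 and 153.3 FPKM to 20.2 and 21.0 FPKM (-2.88), and PRKCQ (-1.20) and PCTP (-0.59) fell too. MYL9, a myosin light chain of platelets, rose from 1.18 and 0.913 FPKM to 4.58 and 3.54 FPKM (1.30), beside SPI1, CCND3 (0.47) and ZBTB7B (0.22). ITGA2B, the platelet integrin, was at 2.01 and 1.59 FPKM under sh-NC against 2.08 and 2.07 FPKM under sh-LDB1 (0.14, adjusted p = 0.351).

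Of 10 genes of the skeletal program of RUNX2, 1 was tested. This was VEGFA, the vascular growth factor, which rose from 21.1 and 19.3 FPKM to 41.4 and 41.8 FPKM (limma, 1.01 on the log2 scale, adjusted p = 0.000272). Without sh-NC replicate 2 this difference was 0.94, under the 2-fold threshold. The bone matrix genes SPP1 and IBSP were listed at 0 FPKM in both sh-NC libraries and reached at most 0.134 FPKM in sh-LDB1. COL1A1, chosen after its values were seen, was at 0.101 and 0.0345 FPKM under sh-NC against 1.06 and 1.18 FPKM under sh-LDB1, and was not tested.

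**Figure D4:**
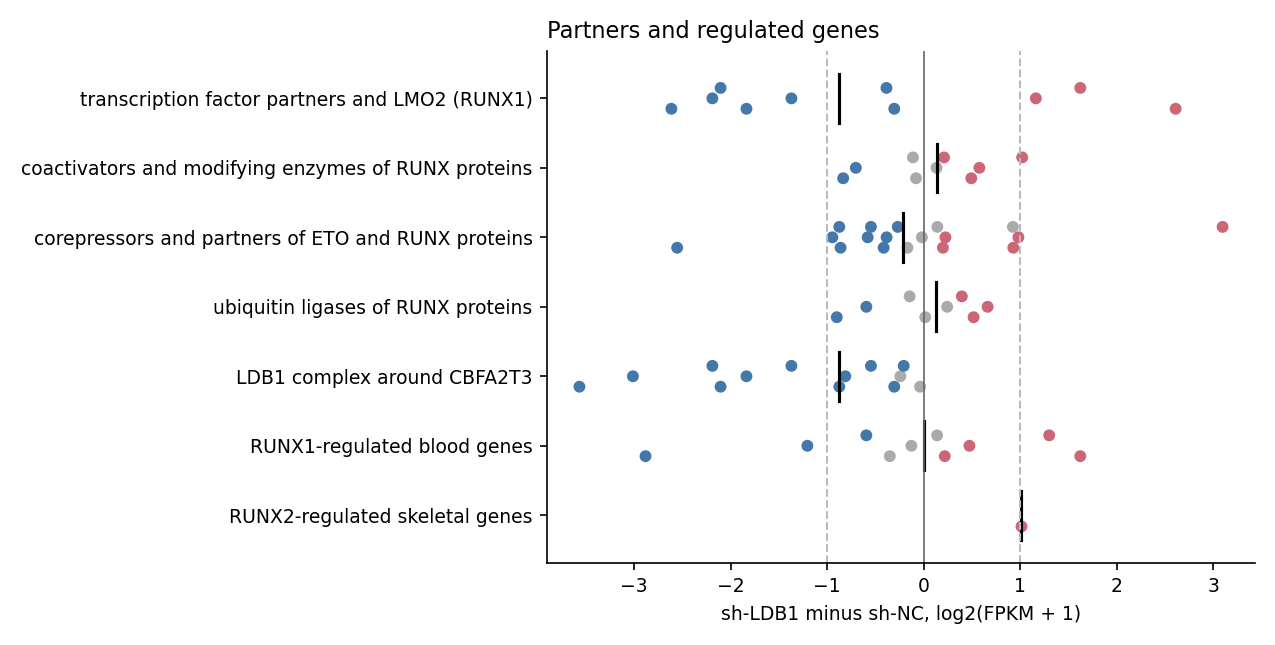
Each point is a tested gene of one of the 7 lists, placed by its difference sh-LDB1 minus sh-NC on the log2(FPKM + 1) scale. Red points passed a limma adjusted p-value of 0.05 as higher and blue points as lower, grey points did not pass, black bars are list medians and dashed lines mark a 2-fold change. The partners of RUNX1 spread from -2.61 to 2.61, while the tested genes of the LDB1 complex lie between -3.56 and -0.04.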

How the data were processed

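RNA-seq libraries of cells labelled NB4 (2 sh-NC, 2 sh-LDB1) were analysed, with groups and replicate numbers taken from the sample titles. The authors filtered reads, mapped them with HISAT (HISAT2 2.0.5 and hg38 in the submitters' processing notes) and deposited FPKM per gene and library. The gene annotation, counting tool and use of strand were not given in the sources used here. Reads were recovered from the steps of the FPKM values with gene lengths of GENCODE release 44 (whole to within 0.002 reads plus 1e-07 of the read count for 99.32% of annotated genes), and replicates were not pooled.

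The 13300 genes averaging 1 FPKM or more over the 4 libraries were tested on log2(FPKM + 1) with limma 3.58.1 in R 4.3.3 (eBayes with a trend, no replicate block, Benjamini-Hochberg adjustment over all genes tested). The 2-fold threshold was a fold change above 2 or below 0.5 on that scale. In simulated data of 13027 genes, 192 of 200 changed genes and 13 of 12827 unchanged genes were called, past the adjusted p-value and the 2-fold threshold together. These counts are over all genes together, and the rate at the levels and differences of the members was not tested separately. The rate for calls by the adjusted p-value alone was not tested. A set in which as many genes differ as the 67.4% that passed an adjusted p-value of 0.05 here was not tested. Tables and motif matches used Python 3.11.15. Members, lists and tests were chosen with earlier results of these data known. Named genes were the members, LDB1, overlapping genes, nearest profiles, and in each list up to 3 genes past both thresholds with the smallest adjusted p-values plus those of small counts. HDAC1, HDAC2, HDAC3, TCF3, TCF12, CEBPA, SPP1, IBSP and COL1A1 were named outside this rule, after their values were seen. Other pseudocounts, filters, scalings and models, a replicate block, and fits without each library were tried. Promoters came from RefSeq, where CBFA2T2, CBFA2T3, RUNX1 and RUNX2 matched.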

Additional observations from a re-analysis of the deposited data

How the results depend on the processing

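The members were refitted under other pseudocounts, filters, scalings, variance models and with each library left out. CBFA2T3 ranged from -1.58 to -1.32, CBFB from 0.98 to 1.18, CBFA2T2 from 0.83 to 1.10, RUNX1 from -0.88 to -0.57 and RUNX2 from 0.77 to 2.76, and no member changed direction under the alternatives that gave it a value. A pseudocount of 0.1 or 0.01 FPKM and voom on recovered reads each raised the members called higher from 1 to 2 by adding CBFA2T2, which follows from the smaller added constant. With limma treat 0 members were called higher, and all genes came to 568 higher and 581 lower. With no fold threshold there were 2 higher and 2 lower members, and 3983 higher and 4978 lower genes. Leaving out 1 library gave 0 to 1 members higher (0 without sh-NC replicate 2, where CBFB was at 0.98), 1 to 1 lower, 1251 to 1289 genes higher and 1352 to 1430 lower, and the lone library of a group is then assumed to vary like the others. Libraries of the same replicate number showed no shared deviation from their group means (correlation 0.0196 over 13300 genes). This cannot show whether they were prepared together. With a replicate block CBFA2T3 stayed at -1.48 (limma adjusted p = 0.000474), and 1274 genes were higher and 1386 lower. Of the recomputed list medians, 30 moved by more than the spread between replicates and 68 did not, and 3 of them had another sign, all for the RUNX1-regulated genes, whose median was 0.01. RUNX2 is limited by depth, with 18 to 20 reads in sh-NC.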
